A study of Mus musculus with 10 samples.

Results

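The interferon-stimulated genes examined here are a set of 38 named mouse genes, among them Ifit1, Isg15, Mx1, Oasl2, Rsad2 and Gbp2, that cells switch on in response to interferons. They were taken by symbol from 55414 gene identifiers in 2 tables of RNA-seq counts, and all 38 were found. Poly(A) RNA was sequenced from 10 libraries of macrophages that were sorted by flow cytometry into Eff+ and Eff- cells, in a study of efferocytosis, the uptake of dying cells by phagocytes, in skin. The 6 wound libraries (3 Eff+, 3 Eff-) came from skin wounds of LysMCreER/mTmG mice collected 3 days after wounding, and these mice were given tamoxifen for 6 days. The 4 culture libraries (2 Eff+, 2 Eff-) held Wild Type bone marrow derived macrophages, grown for 7 days in GM-CSF and given apoptotic fibroblasts for 12 h. In LysMCreER/mTmG mice the promoter of the lysozyme gene Lyz2 drives a tamoxifen-activated Cre recombinase, which turns on a membrane GFP reporter. That promoter is active in macrophages and also in neutrophils. The column names of the culture Eff- libraries carry the letters NOAC although the labels of all 4 culture libraries list the apoptotic fibroblasts, so whether these Eff- cells had met apoptotic cells was not settled. Neither the labels nor the files give the age of the mice. Whether the replicates of a group are different mice or different cultures is not stated, so the p-values reflect the spread among these libraries and nothing wider, and that spread may be technical.

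Type I interferons bind the receptor made of Ifnar1 and Ifnar2, and the kinases Jak1 and Tyk2 then activate a complex that holds Stat2 and Irf9 and binds interferon-stimulated response elements (ISREs) in the promoters of target genes. Interferon gamma acts through gamma-activated sites (GAS). The induced proteins sense viral RNA and DNA, block viral translation and release, degrade RNA, and tag proteins with the ubiquitin-like protein Isg15. In macrophages many of them can also be induced by Toll-like receptors and by nucleic acid taken up from dying cells.

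The promoters are shown first because the ISRE is the element through which type I interferons act on target genes, and the choice of members used no sequence. RefSeq promoter windows (build GRCm38.p6, which is not the build of the counts) run from 250 bases before to 50 bases after a transcript start and cover 29 of the 38 members. Mx1, Mx2, Oas2, Usp18, Zbp1, Parp14, Rtp4, Dhx58 and Ifi204 have no window. The ISRE was searched as GAAA followed by any 2 bases and a second GAAA, which reads as TTTC in the same spacing on the other strand, and the GAS as TTCNNNGAA, which reads the same on both strands. The ISRE letters were found in 17 of 29 members (58.6%), against 1079 of 27025 genes with a window (3.99%). The GAS letters were found in 7 of 29 members (24.1%), against 9.55% of genes. A match is a description of letters and does not show that a factor binds there.

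The 5 stretches below, read 5′ to 3′ on the strand of the gene, were chosen after expression values were seen and cover the genes whose values are followed most closely. Capitals mark the ISRE letters, except in Isg20, where they mark the GAS letters. Isg15 (chr4:156200839-156200958, minus strand) has 3 overlapping matches, and Ifit1 (chr19:34640749-34640868, plus strand) has 2 separate ones. Rsad2 (chr12:26456473-26456592, minus strand) and Gbp2 (chr3:142620594-142620623, plus strand) have 1 each. Isg20 (chr7:78913284-78913403, plus strand) has no ISRE match in any of its 3 windows.
Isg15: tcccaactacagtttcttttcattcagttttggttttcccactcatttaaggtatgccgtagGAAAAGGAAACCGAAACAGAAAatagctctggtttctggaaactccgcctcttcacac
Ifit1: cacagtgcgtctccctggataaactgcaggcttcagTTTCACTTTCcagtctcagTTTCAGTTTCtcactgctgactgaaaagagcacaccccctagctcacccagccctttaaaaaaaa
Rsad2: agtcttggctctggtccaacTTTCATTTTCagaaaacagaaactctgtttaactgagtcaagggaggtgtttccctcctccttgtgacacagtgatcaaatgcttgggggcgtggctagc
Gbp2: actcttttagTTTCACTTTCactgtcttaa
Isg20: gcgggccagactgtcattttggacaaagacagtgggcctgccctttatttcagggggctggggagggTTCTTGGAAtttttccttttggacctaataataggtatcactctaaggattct

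Of 26 ISRE matches in the members' windows, 22 began before the transcript start, at distances from 14 bases (Oas1a) to 222 bases (Stat2). The other 4, in Ifih1, Ddx58, Eif2ak2 and 1 window of Trim30a, began after it. Overlapping ISRE matches occurred in 5 members: Bst2, Gbp3, Irgm1, Isg15 and Oas1a. In Bst2 an ISRE match and a GAS match also overlapped each other.

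**Figure D1:**
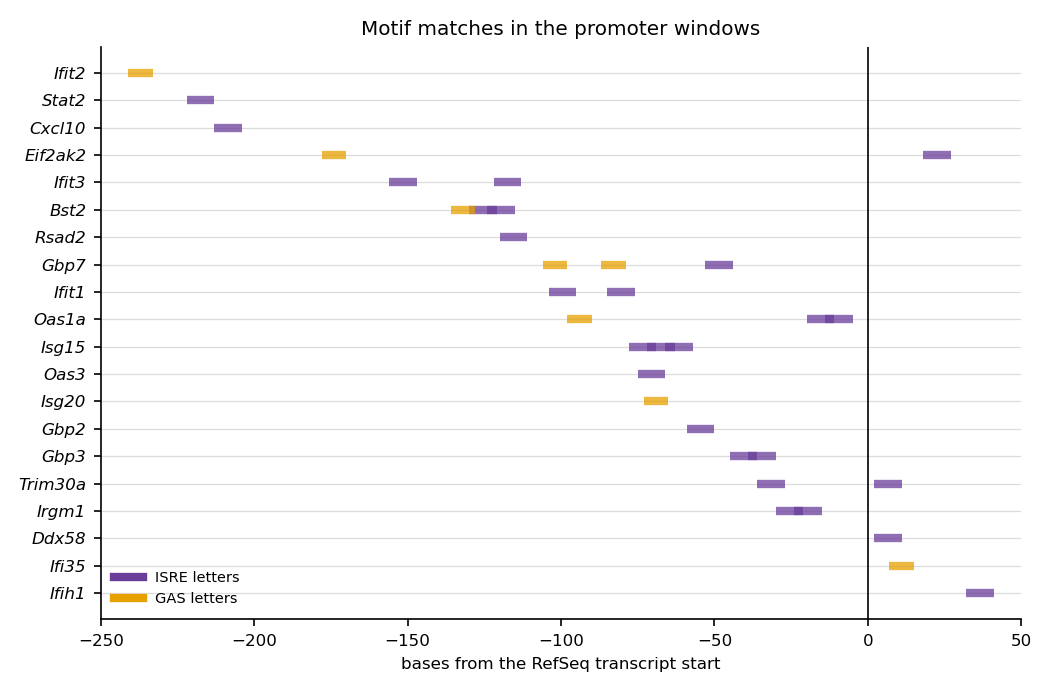
Positions of ISRE letters (purple) and GAS letters (orange) in the RefSeq promoter windows, 1 row per member with a match, with bases from the transcript start on the horizontal axis. Of the 26 ISRE matches, 22 begin before the start at 0.

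Total counts ranged from 39735437 to 57308823 in the wound libraries and from 17622740 to 27261880 in culture. Markers of neutrophils, a list of 24 genes, took 3.14 to 3.88% of counts in the wound Eff+ libraries and 0.550 to 1.03% in the wound Eff- libraries, and 16 of the 22 tested were called higher in Eff+. Of 14 macrophage markers, 5 were called lower and 1 higher in wound Eff+. The 14 markers of T and NK cells summed to 174 to 326 counts in the wound Eff+ libraries and 93 to 795 in Eff-, the highest in Eff- library 2. Of these, 6 were tested and none was called, and Cd3e was at 0 in all 6 libraries. Siglech, which marks plasmacytoid dendritic cells, had 0.332 to 1.48 CPM (counts scaled to a common library total) in Eff+ and 0 in Eff-. Of 9 markers of those cells 7 were tested, and 3 were called higher and 1 lower in wound Eff+. Summed, the 9 went the other way from Siglech, with 0.00548 to 0.00760% of counts in wound Eff+ and 0.0100 to 0.0133% in wound Eff-. Most of that sum was Tcf4, at 32.6 to 55.0 CPM in Eff+ and 89.5 to 121 CPM in Eff-. Of the 7 tested, 5 had a positive log2 fold change. Markers of keratinocytes (3 of 5 tested) and fibroblasts (2 of 15) were also called higher. Over all tested wound genes, 7.39% were called higher and 3.79% lower in Eff+. Lyz2 stood at 2783 and 7826 CPM, on the same scale, in the wound libraries numbered 2 and at 4.03 to 8.18 in the other 4. In culture, more genes had at least 1 count in the libraries numbered 1 (35649 in Eff+, 44836 in Eff-) than in those numbered 2 (19649 and 18171). The part of these differences in the results was not tested. In such bulk samples, fewer cells of a type and less RNA per cell cannot be told apart.

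The members took a larger share of the RNA in wound macrophages than in cultured ones, and within the wound groups library 1 stood apart. In the wound Eff+ libraries they took 1.29%, 0.360% and 0.397% of all counts, and in the wound Eff- libraries 0.869%, 0.331% and 0.379%. In culture the shares were 0.0629% and 0.0678% in Eff+ and 0.0675% and 0.0750% in Eff-. The ranges of Eff+ and Eff- overlapped in both models. No single gene carried the sum: in the Eff+ wound library 1 the largest contributors were Rtp4 (9.90% of the members' counts), Rsad2 (9.43%) and Ifit1 (8.52%), and the leading 10 genes held 65.1%. In the Eff- wound libraries Irf7 led in each, with 10.2%, 11.2% and 11.7% of the members' counts. In culture the leading gene was Bst2 in both Eff+ libraries, Gbp7 in Eff- 1 and Gbp2 in Eff- 2.

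**Figure D2:**
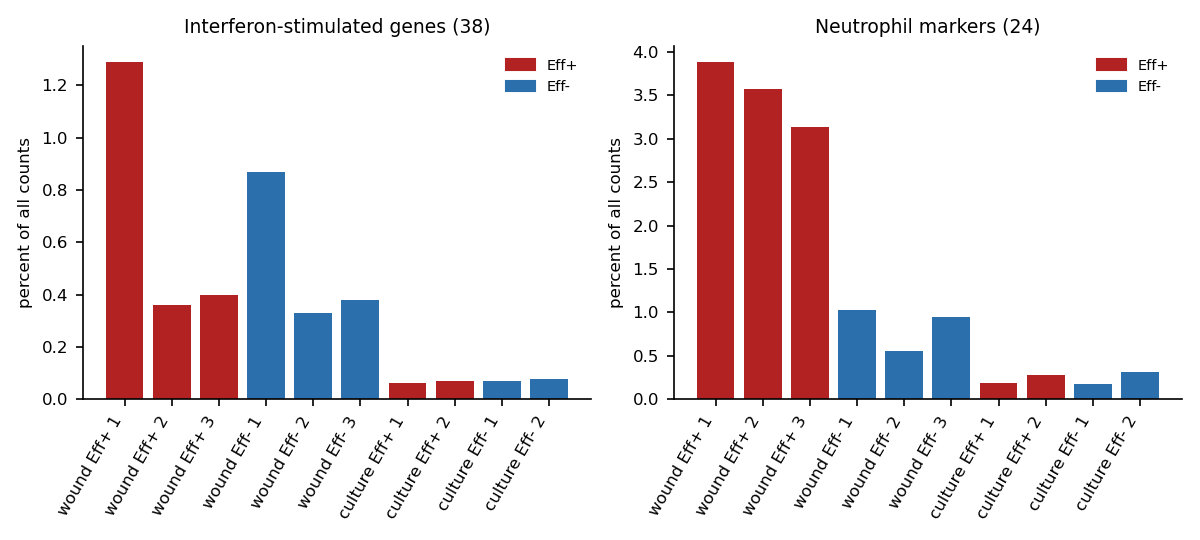
Bars give the percent of all counts taken by the 38 interferon-stimulated genes (left) and by 24 neutrophil markers (right) in each of the 10 libraries, Eff+ in red and Eff- in blue. The wound libraries numbered 1 hold 1.29% and 0.869% of counts in the interferon-stimulated genes, while neutrophil markers separate wound Eff+ (3.14 to 3.88%) from wound Eff- (0.550 to 1.03%).

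All 38 members were highest in library 1 of the wound Eff+ group and also highest in library 1 of the wound Eff- group, a pattern shared by 18.8% of the 14906 tested genes with a unique symbol. The ratio of library 1 to the mean of libraries 2 and 3 had a median of 2.74 over the members in Eff+ (range 1.38 to 8.28) and of 2.26 in Eff- (1.61 to 4.71). The ratio passed 2 in 33 members in Eff+ (8.21% of genes) and in 28 in Eff- (7.00% of genes). It was highest for Ifit3 in both groups, 8.28 and 4.71, and lowest for Cxcl10 in Eff+ (1.38) and Irf9 in Eff- (1.61). Members with a high ratio in Eff+ tended to have a high ratio in Eff-: Pearson's r of the log2 ratios was 0.78 and Spearman's rho 0.73 over 38 genes, which share their libraries and are not independent. By role, the medians in Eff+ and Eff- were 4.84 and 3.42 for the 5 IFIT and Rsad2-related genes, and 2.09 and 1.66 for the 3 nuclear factors Irf7, Irf9 and Stat2. Among 69 other tested interferon-stimulated genes, 60 were highest in library 1 of both groups, with medians of 2.13 and 1.70. Among 23 genes that lean towards interferon gamma, 10 were highest in library 1 of both groups, with medians of 1.68 and 1.64. Library 1 was the highest for 12 of these genes in Eff+ and for 19 in Eff-.

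In the wound, Eff+ and Eff- macrophages were compared to ask which genes differ with the uptake of apoptotic cells. None of the 38 members was called at an adjusted p under 0.05 (edgeR quasi-likelihood test without a replicate block, Benjamini-Hochberg adjustment over 14908 genes), against 11.2% of all genes (7.39% higher and 3.79% lower in Eff+). The log2 fold change of Eff+ over Eff- was positive in 32 of 38 members (48.7% of all genes), with a median of 0.52 (all genes -0.03) and a range from -0.98 (Mx1) to 1.98 (Isg20). At an unadjusted p under 0.05 there were 2 members, Isg20 and Gbp2, and 4454 genes. DESeq2 called 1 member, Gbp2, where it called 21.0% of genes, and edgeR with no filter on low counts called Gbp2 and Isg20 (7.04% of genes). The median changed with library 1: it was -0.34 without Eff+ library 1, 0.94 without Eff- library 1, and 0.19 without both. Without both libraries numbered 1, a setting chosen after seeing the data, edgeR called 4 members higher in Eff+ (4.87% of genes called): Isg20 (log2 fold change 1.88), Ifit1 (1.45), Rtp4 (1.11) and Isg15 (1.04). With a replicate block over all 6 libraries, edgeR called 17 members, 15 higher in Eff+ (11.5% of genes) and 2 lower (8.51% of genes). That fit treats libraries of the same number as pairs, and whether they are pairs was not settled. The lack of calls without a block therefore does not show equal levels.

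**Figure D3:**
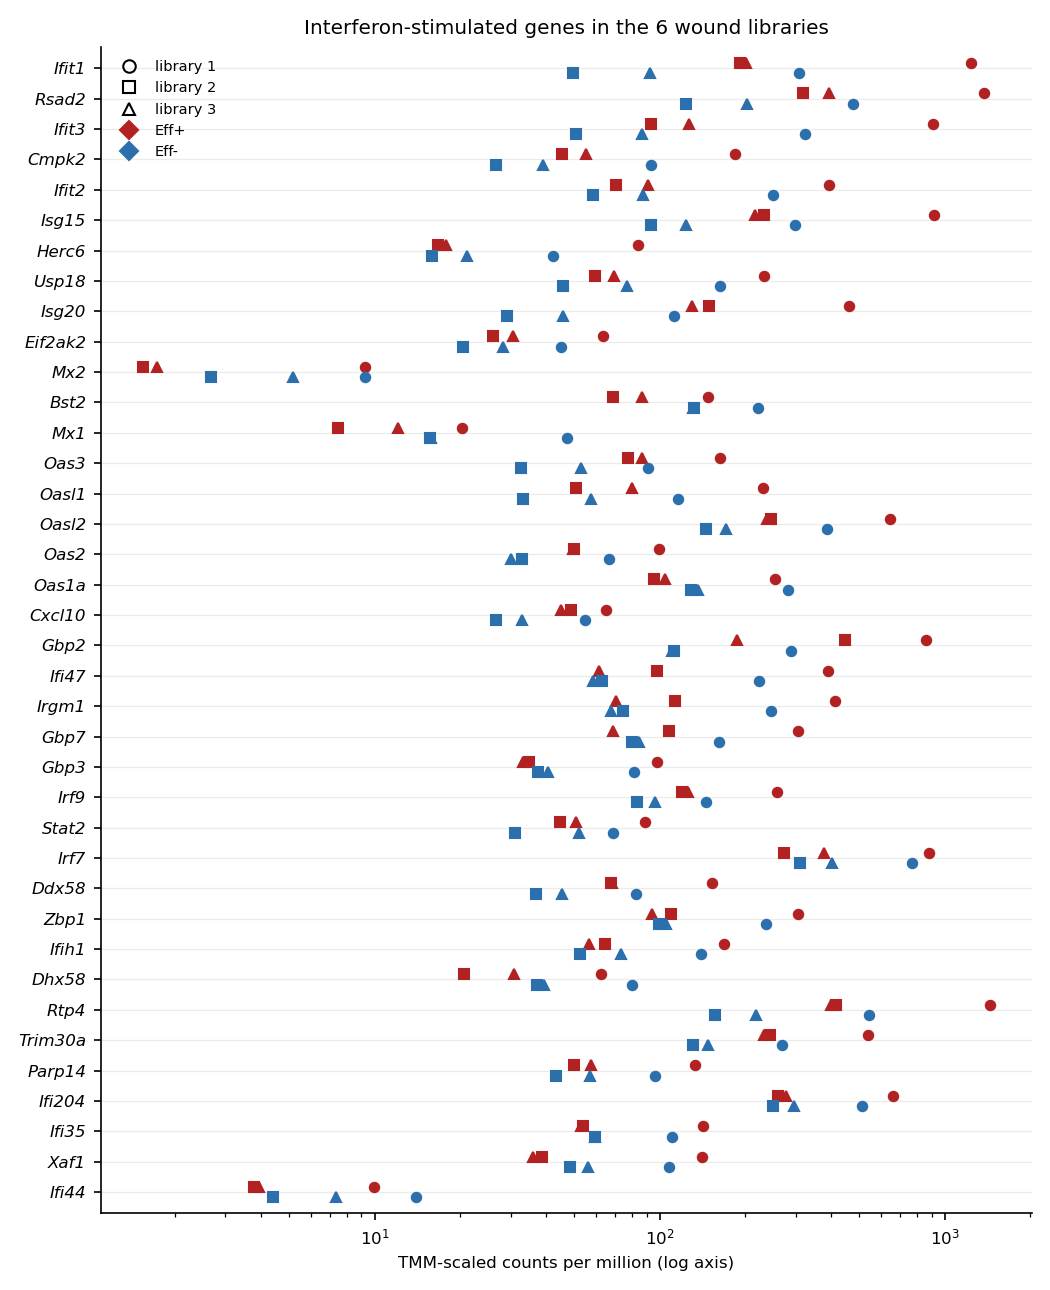
TMM-scaled CPM (log axis) of the 38 members in the 6 wound libraries, Eff+ in red and Eff- in blue, with circles, squares and triangles for libraries 1, 2 and 3. The circle lies farthest right in both groups for every member, and only Isg20 has its 3 Eff+ libraries above all 3 Eff- libraries.

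Isg20, an exonuclease that degrades RNA (GRCm39 chr7:78563172-78570144, plus strand), was the member closest to the threshold in the fit without a replicate block. Its level, in CPM after trimmed-mean (TMM) scaling, the scale of all CPM below, was 460, 149 and 130 in Eff+ and 112, 29.2 and 45.9 in Eff-. It was the only member whose groups did not overlap, which held for 36.8% of all genes (Eff+ above for 18.7%, below for 18.1%). Its log2 fold change was 1.98 ± 0.63 (SE, n = 3 and 3; edgeR adjusted p = 0.081). Isg20 and the other members named here for their values alone (Trim30a, Rtp4 and Oas3) were chosen after their values were seen.

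The IFIT proteins bind viral RNA and block its translation, Rsad2 (viperin) makes a chain-terminating nucleotide, and Cmpk2, its neighbour on chromosome 12, supplies the substrate. Ifit1 (chr19:34618271-34627409) had 1238, 191 and 201 CPM in Eff+ and 308, 49.5 and 92.4 CPM in Eff-. Ifit3 had 912, 93.5 and 127 CPM in Eff+ and 325, 50.7 and 87.1 CPM in Eff-. Ifit2 had 392, 70.5 and 91.3 CPM in Eff+ and 250, 58.3 and 87.6 CPM in Eff-. In each of the 3 genes the Eff- library 1 lay above the Eff+ libraries 2 and 3, so the groups overlapped. The log2 fold changes were 1.86 ± 0.90 for Ifit1 (SE, n = 3 and 3; edgeR adjusted p = 0.21), 1.29 ± 0.97 for Ifit3 (0.42) and 0.48 ± 0.74 for Ifit2 (0.70). Rsad2 (chr12:26492745-26506451) had 1370, 320 and 392 CPM in Eff+ and 478, 124 and 202 CPM in Eff-, a log2 fold change of 1.37 ± 0.66 (SE; edgeR adjusted p = 0.21). All 5 genes of this group, Cmpk2 included, had a positive fold change, and none was called by edgeR over the 6 libraries without a replicate block. Reads of Ifit3 can be shared with its near-identical neighbour Ifit3b, so the counts of those 2 genes are uncertain.

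Isg15 is the ubiquitin-like modifier, Usp18 removes it from proteins and also dampens the interferon receptor, and Herc6 attaches it. Isg15 (chr4:156283912-156285253) had 920, 233 and 217 CPM in Eff+ and 299, 93.0 and 123 CPM in Eff-. Its log2 fold change was 1.41 ± 0.65 (SE, n = 3 and 3; edgeR adjusted p = 0.19), with only Eff- library 1 reaching above the 2 lower Eff+ libraries. Usp18 had 233, 59.5 and 69.3 CPM in Eff+ and 163, 45.9 and 77.0 CPM in Eff-. Eff+ library 1 was the highest of the 6 and the other 5 interleaved, and the log2 fold change was 0.34 ± 0.61 (SE; edgeR adjusted p = 0.75). Herc6 had a log2 fold change of 0.57 ± 0.66.

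The OAS enzymes sense double-stranded RNA and make the second messenger that activates RNase L, and Oasl1 and Oasl2 are OAS-like proteins. Oasl1 had 230, 50.9 and 80.1 CPM in Eff+ and 116, 33.1 and 57.5 CPM in Eff- (log2 fold change 0.80 ± 0.61 SE, edgeR adjusted p = 0.43). Oasl2 had 643, 246 and 238 CPM in Eff+ and 387, 146 and 172 CPM in Eff- (0.68 ± 0.49, edgeR adjusted p = 0.40). Oas3 had 162, 77.4 and 86.8 CPM in Eff+ and 91.4, 32.8 and 53.1 CPM in Eff- (0.88 ± 0.41, edgeR adjusted p = 0.20). In these 3 genes each Eff+ library was above the Eff- library of the same number. Oas2 had a log2 fold change of 0.62 and Oas1a of -0.27. Oas1a belongs to a cluster of near-identical copies, so its count is uncertain where reads match more than 1 copy.

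Of the other antiviral effectors, Mx1, Mx2 and Bst2 had negative log2 fold changes, and none was called by edgeR without a replicate block. Mx1, a dynamin-like GTPase, had 20.3, 7.46 and 12.1 CPM in Eff+ and 47.3, 15.6 and 15.8 CPM in Eff-. Its log2 fold change of -0.98 ± 0.52 (SE, n = 3 and 3; edgeR adjusted p = 0.25) was the lowest of the members, and only Eff+ library 1 lay within the Eff- range. Bst2 (tetherin), which holds budding virus at the cell surface, had 148, 68.6 and 86.5 CPM in Eff+ and 222, 132 and 131 CPM in Eff-, a log2 fold change of -0.68 ± 0.33 (SE; edgeR adjusted p = 0.21). Here too Eff+ library 1 was the only overlap. Mx2 was at 9.27, 1.54 and 1.72 CPM in Eff+ and 9.26, 2.66 and 5.19 CPM in Eff-. Eif2ak2 (PKR), the kinase that stops translation on double-stranded RNA, had a log2 fold change of 0.35.

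Irf7, Irf9 and Stat2 carry the interferon signal into the nucleus. Irf7, the factor that amplifies type I interferon genes, had 881, 274 and 377 CPM in Eff+ and 771, 311 and 403 CPM in Eff-. The groups interleaved, and the log2 fold change was 0.04 ± 0.48 (SE, n = 3 and 3; edgeR adjusted p = 0.96); the sign depended on the scaling and was negative with library totals only. Irf9 had 258, 120 and 126 CPM in Eff+ and 145, 83.4 and 96.3 CPM in Eff- (0.63 ± 0.34, edgeR adjusted p = 0.26). Stat2 had 88.9, 44.6 and 50.7 CPM in Eff+ and 68.8, 31.0 and 52.1 CPM in Eff- (0.28 ± 0.35, edgeR adjusted p = 0.64). Irf9 shares an exon with Rnf31, and reads that fall on exons of more than 1 gene are not counted at the settings in the header.

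Among the sensors, Ddx58 (RIG-I) and Ifih1 (MDA5) detect viral RNA, Dhx58 regulates both, and Zbp1 detects Z-form nucleic acid. Ddx58 had 152, 67.6 and 68.2 CPM in Eff+ and 82.5, 36.8 and 45.5 CPM in Eff-, a log2 fold change of 0.81 ± 0.41 (SE; edgeR adjusted p = 0.23). Each Eff+ library was above the Eff- library of its number, by a log2 ratio of 0.88, 0.87 and 0.58. Ifih1 had 168, 64.6 and 56.4 CPM in Eff+ and 140, 52.7 and 73.1 CPM in Eff- (0.12 ± 0.49, edgeR adjusted p = 0.90). Zbp1 had 306, 110 and 94.0 CPM in Eff+ and 236, 99.8 and 105.6 CPM in Eff- (0.21 ± 0.51, edgeR adjusted p = 0.82). Dhx58 was on the other side of 0, with a log2 fold change of -0.46. The signs of Stat2, Usp18, Zbp1 and Ifih1 turned negative when only library totals were used for scaling.

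The guanylate-binding proteins and immunity-related GTPases act on the membranes of vacuoles that hold microbes. Gbp2 (chr3:142326363-142343769) had 859, 448 and 187 CPM in Eff+ and 288, 112 and 111 CPM in Eff-. Only Eff- library 1 lay above Eff+ library 3, and the log2 fold change was 1.55 ± 0.58 (SE, n = 3 and 3; edgeR adjusted p = 0.12). Ifi47 had 388, 98.3 and 61.2 CPM in Eff+ and 224, 62.8 and 58.5 CPM in Eff- (0.67 ± 0.76, edgeR adjusted p = 0.60), and its exons overlap those of Olfr56. Irgm1, Gbp7 and Gbp3 had log2 fold changes of 0.62, 0.56 and 0.06. Cxcl10, the chemokine that attracts T cells through Cxcr3, had 64.7, 49.1 and 45.0 CPM in Eff+ and 54.8, 26.6 and 32.8 CPM in Eff-. Its log2 fold change was 0.48 ± 0.29 (SE; edgeR adjusted p = 0.31), and its ratio of library 1 to the other libraries was the smallest of the members in Eff+.

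Of the remaining 7 members, Rtp4, a zinc-finger antiviral protein, had 1439, 416 and 399.7 CPM in Eff+ and 545, 156 and 218 CPM in Eff- (log2 fold change 1.30 ± 0.62 SE, edgeR adjusted p = 0.21). Trim30a, a regulator of Toll-like receptor signalling, had 540, 244 and 232 CPM in Eff+ and 270, 131 and 147 CPM in Eff- (0.89 ± 0.40, edgeR adjusted p = 0.18). In both genes only Eff- library 1 reached above the lower Eff+ libraries. Parp14, Ifi204, Ifi35 and Xaf1 had log2 fold changes from 0.02 to 0.29, and Ifi44 had -0.54. Of all 38 members, 14 share an exon with another annotated gene (Irf7 with Phrf1 and Cxcl10 with Art3, for example, both on the opposite strand), and the header of the wound table names no strand setting.

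Because the libraries numbered 1 stood apart, Eff+ was also set against Eff- within each number, although no label says that the numbers pair libraries. In the wound, Eff+ was above Eff- in 33 members for number 1, 28 for number 2 and 21 for number 3. The median log2 ratio (0.5 CPM added to both values) was 0.62, 0.47 and 0.06. Over all 3 numbers, 21 members were higher in Eff+ each time (28.9% of genes) and 5 were lower each time (30.0% of genes), 26 in all against 58.8% of genes. The 5 lower members were Mx1, Bst2, Oas1a, Dhx58 and Ifi44. The log2 ratios of Isg20 were 2.03, 2.33 and 1.49, and those of Ifit1 were 2.00, 1.94 and 1.12. All 5 IFIT and Rsad2-related genes and 4 of the 5 OAS and OAS-like genes were higher in all 3 numbers. The same held for 1 of 3 nuclear factors and 1 of 4 sensors. Of the 17 members with ISRE letters 11 were higher in all 3 numbers, of the 12 without them 7, and of the 9 without a window 3.

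**Figure D4:**
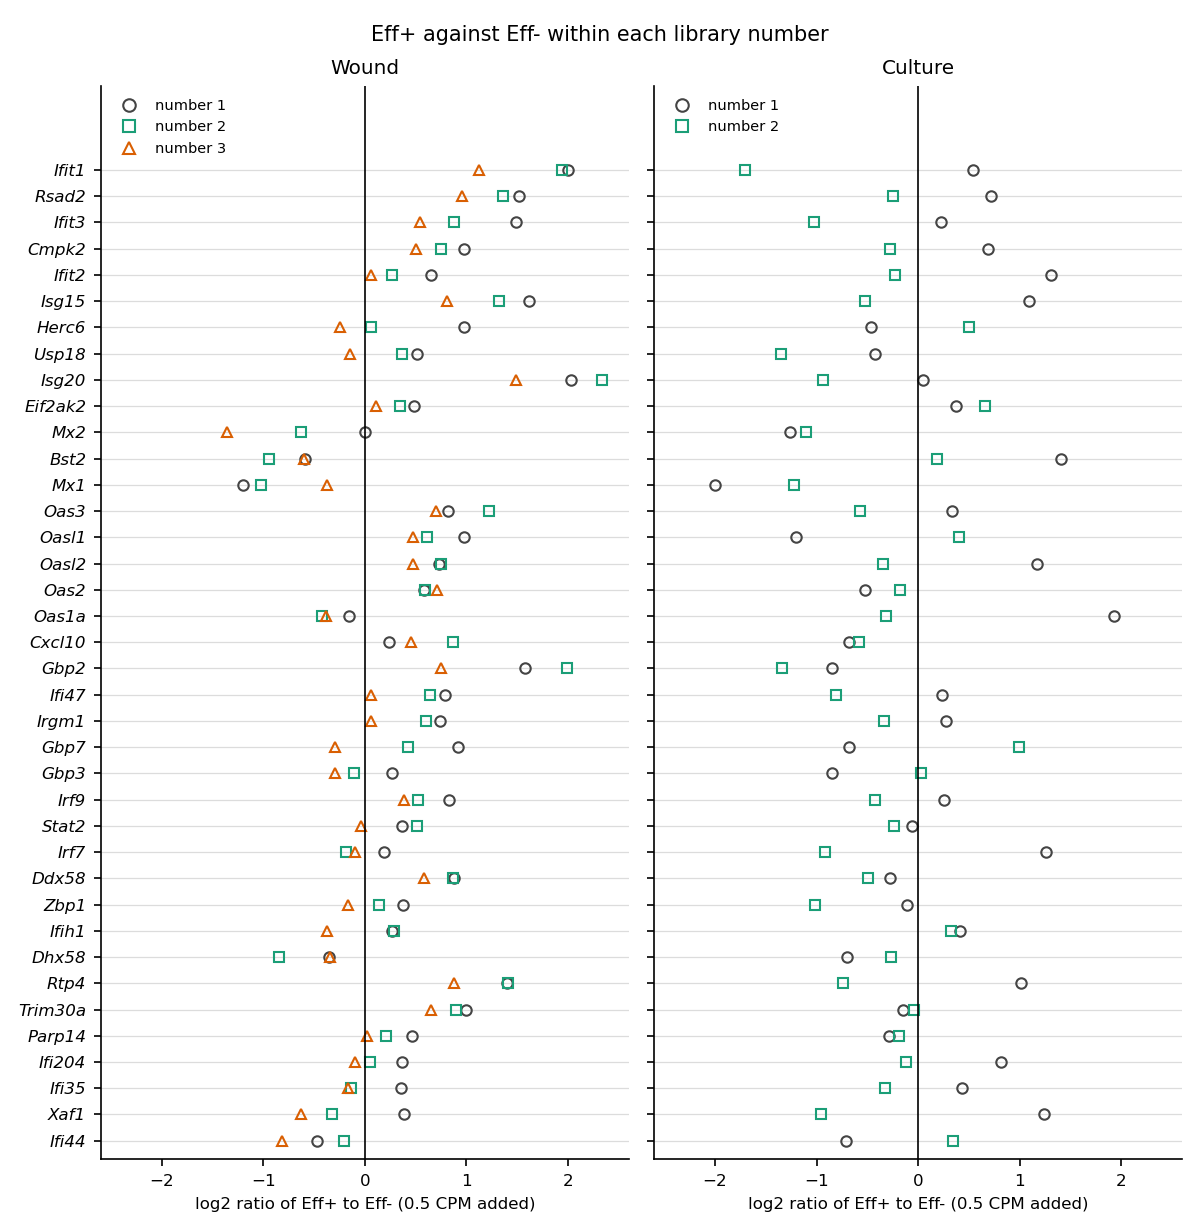
Log2 ratio of Eff+ to Eff- (0.5 CPM added) for each member within each library number, wound on the left (numbers 1 to 3) and culture on the right (numbers 1 and 2), with the line at 0 for equal levels. In the wound 21 members lie right of 0 for all 3 numbers, and in culture 3 lie right and 12 left of 0 for both numbers.

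In culture the same comparison gave no pattern that held across the members. None of the 38 was called by edgeR, and none of the 14867 tested genes was (0.00%). On simulated counts with the same spread, this fit called 0% of 100 genes changed 4-fold. The lack of calls therefore does not show equal levels. At an unadjusted p under 0.05 there were 115 genes and 1 member, Mx1, and DESeq2 called 2 genes and 0 members. The log2 fold change was positive in 13 of 38 members (46.2% of genes), with a median of -0.16 (all genes -0.05) and a range from -2.43 (Mx2) to 0.57 (Oas1a). Leaving out Eff- library 2 moved the median to 0.56, and testing without the filter on low counts moved it to 0.04. The groups did not overlap for 5 members (20.7% of genes): Mx1, Mx2, Usp18 and Gbp2 with Eff+ below Eff- (9.42% of genes), and Eif2ak2 with Eff+ above (11.3% of genes). Within number 1 the median log2 ratio was 0.23, with 21 members above 0, and within number 2 it was -0.33, with 8 above 0. Over both numbers, 3 members were higher (23.4% of genes), namely Bst2, Ifih1 and Eif2ak2, and 12 were lower (23.8% of genes), 15 in all against 47.2% of genes.

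Gbp2 in culture had 19.7 and 33.4 CPM in Eff+ and 35.9 and 85.5 CPM in Eff- (log2 fold change -1.19 ± 0.59, SE, n = 2 and 2; edgeR adjusted p = 1.00). Mx1 had 2.81 and 2.08 CPM in Eff+ and 12.7 and 5.51 CPM in Eff- (-1.90 ± 0.68, edgeR adjusted p = 1.00). Usp18 had 12.6 and 9.10 CPM in Eff+ and 17.1 and 23.9 CPM in Eff- (-0.92 ± 0.45, edgeR adjusted p = 1.00). In these 3 genes both Eff+ libraries lay below both Eff- libraries, by less than the test could separate with this spread.

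For most other members the 2 culture numbers went opposite ways. Ifit1 had 5.31 and 2.95 CPM in Eff+ and 3.50 and 10.8 CPM in Eff-, and Isg15 had 5.66 and 5.36 CPM in Eff+ and 2.38 and 7.90 CPM in Eff-. Irf7 had 13.3 and 7.48 CPM in Eff+ and 5.25 and 14.5 CPM in Eff-. For each of the 3, Eff- library 2 was the highest of the 4, and Eff+ was above Eff- in number 1 and below it in number 2. Bst2, at 50.9 and 93.0 CPM in Eff+ and 18.9 and 81.8 CPM in Eff-, was higher in Eff+ in both numbers, with log2 ratios of 1.41 and 0.19. Rsad2 had 6.50 and 4.61 CPM in Eff+ and 3.77 and 5.56 CPM in Eff-, and Oasl2 14.3 and 16.7 against 6.06 and 21.4. Cxcl10, at 2.08 and 0.457 CPM in Eff+ and 3.64 and 0.935 CPM in Eff-, was lower in Eff+ in both numbers.

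A fit over all 10 libraries tested whether Eff+ against Eff- differed between wound and culture. None of the 38 members was called (0.00% of 20270 genes, with 2222 genes at an unadjusted p under 0.05), and DESeq2 called Gbp2 alone, where it called 3.93% of genes. On simulated counts the edgeR fit called 0% of 100 genes with a 4-fold difference, so its lack of calls does not show equal changes. With no filter on low counts edgeR called Gbp2, Ifit1 and Isg20 (1.09% of genes). With a replicate block it called Gbp2 and Isg20 among 441 genes. The smallest edgeR adjusted p of a member was 0.33, for Gbp2, whose log2 fold change was higher in the wound by 2.77 ± 0.95 (SE). The same difference was 2.67 ± 1.35 for Ifit1 (edgeR adjusted p = 0.50) and 2.41 ± 1.00 for Isg20 (edgeR adjusted p = 0.41). Without culture Eff- library 2, edgeR called Bst2 alone, with a difference, wound minus culture, of -2.64 ± 0.61 (SE; edgeR adjusted p = 0.011; 8.50% of genes called). Oas2, Ddx58, Cxcl10, Gbp2, Parp14 and Trim30a were higher in Eff+ in all 3 wound numbers and lower in both culture numbers, 6 of 38 members against 9.40% of genes.

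Between the models, almost every member had a higher level in the wound libraries than in the culture libraries. The models differ in tissue, genotype, growth factor and table of counts, which cannot be told apart, so these values are descriptions with no test. Levels were taken as CPM per kilobase of exon, on counts scaled over all 10 libraries together. In 35 of 38 members every wound library was above every culture library (11.7% of genes), and in 0 members every wound library was below (13.0% of genes). The 3 exceptions were Stat2, Eif2ak2 and Mx1. The median ratio of the wound mean to the culture mean was 11.7, and 7.32 without the wound libraries numbered 1. The ratio was 143 for Rsad2, 97.7 for Isg20, 94.2 for Ifit1 and 89.9 for Isg15, and without the libraries numbered 1 it was 76.4, 55.5, 35.8 and 47.1. At the other end it was 1.31 for Eif2ak2, 2.06 for Stat2 and 3.23 for Bst2.

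The order of length-scaled levels also differed between the models. Isg15 was the highest member in the wound, with a mean of 532 CPM per kilobase (range 154 to 1583), followed by Rtp4 at 295 (85.0 to 816) and Ifit3 at 182 (33.8 to 632). These ranges overlapped, but within every wound library Isg15 was above Rtp4 and Rtp4 was above Ifit3. Bst2 was the highest member in culture, with a mean of 53.0 CPM per kilobase (16.0 to 80.6), ahead of Gbp2 at 13.5 (6.16 to 26.6) and Oas1a at 13.4 (4.63 to 18.7). Ifi44 was the lowest in both, at means of 1.39 and 0.102 CPM per kilobase, with Mx2 next at 1.61 and 0.139.

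**Figure D5:**
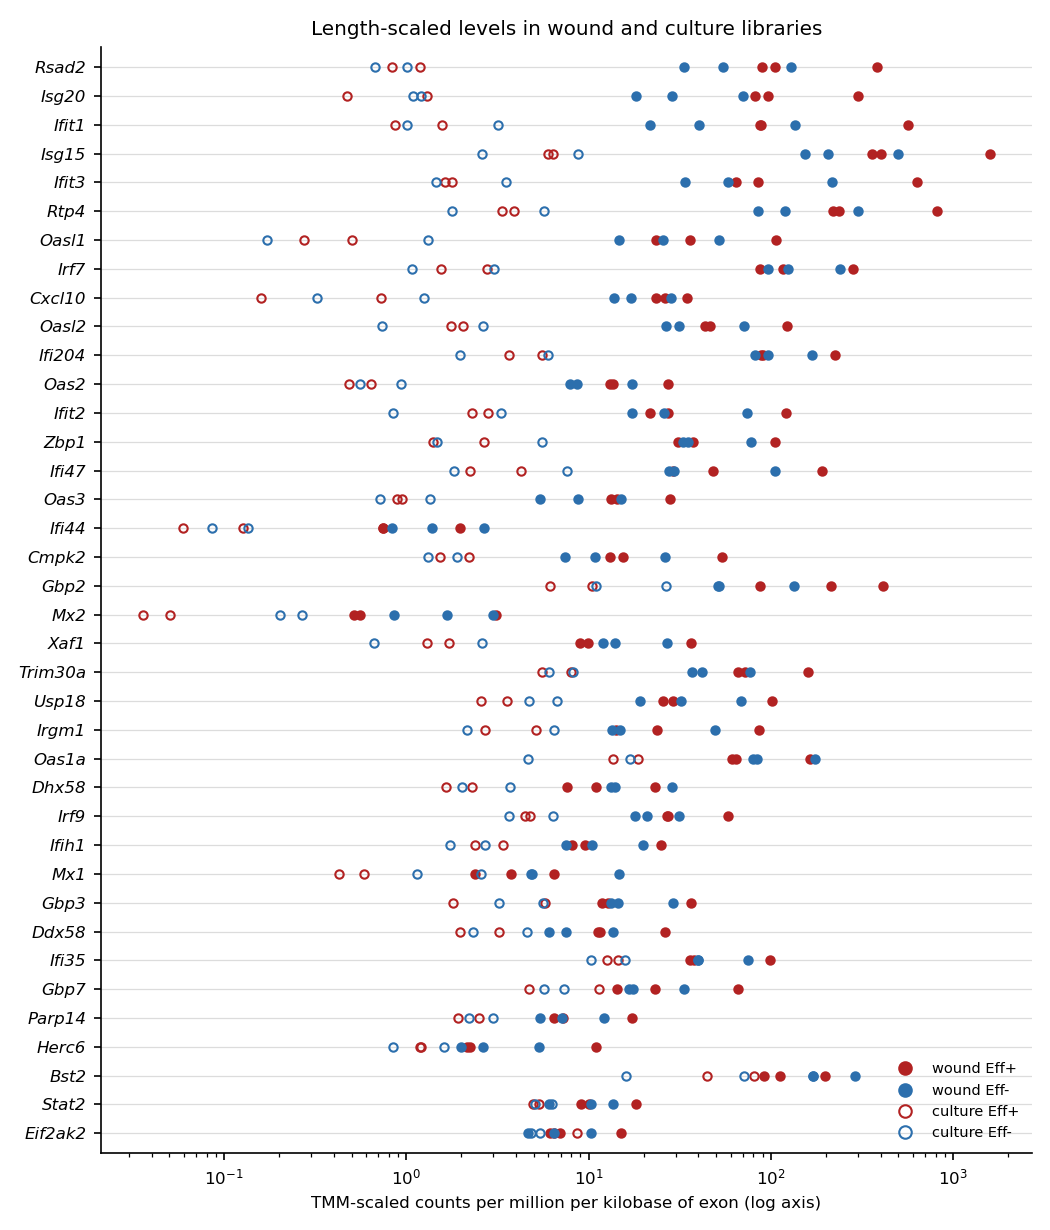
Length-scaled level of each member (TMM-scaled CPM per kilobase of exon, log axis) in 6 wound libraries (filled) and 4 culture libraries (open), Eff+ in red and Eff- in blue, sorted by the ratio of wound to culture means. Filled points lie right of all open points for 35 of the 38 members, with ratios from 143 (Rsad2) at the top to 1.31 (Eif2ak2) at the bottom.

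The other genes of the pathway were taken from lists that do not hold the members. Of 19 interferon ligand genes, 1 passed the filter on low counts in the wound, Ifnb1, which had 0, 8 and 16 counts in Eff+ and 12, 2 and 68 counts in Eff- and was not called. Ifng, the gene of interferon gamma, had 2 counts in Eff- library 3 and 0 in the other 5 wound libraries. Over all tested wound genes 7.39% were called higher and 3.79% lower in Eff+, the shares to set beside the counts of each list. Of 11 receptor and JAK-STAT genes 3 rose in wound Eff+ and none fell. The 3 were Ifnlr1, a subunit of the type III interferon receptor (log2 fold change 2.79 ± 0.51 SE, edgeR adjusted p = 0.018), Jak1 (0.79 ± 0.16, edgeR adjusted p = 0.024) and Stat3 (0.70 ± 0.16, edgeR adjusted p = 0.033). Ifnar1, Ifnar2 and Ifngr1 were not called, with log2 fold changes of 0.25, 0.24 and -0.15. Ifnar1, unlike the members, was lowest in the libraries numbered 1, at 312, 388 and 371 CPM in Eff+ and 261, 302 and 338 CPM in Eff-.

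Of 7 regulatory factors outside the members 6 were tested, and Irf1 rose and Irf8 fell in wound Eff+. Irf1, which drives many interferon gamma targets, had 239, 246 and 211 CPM in Eff+ and 146, 94.1 and 149 CPM in Eff- (log2 fold change 0.84 ± 0.21 SE, edgeR adjusted p = 0.042). Irf8, a factor of macrophage and dendritic cell development, had 71.5, 49.5 and 72.3 CPM in Eff+ and 130.5, 110.1 and 117 CPM in Eff- (-0.89 ± 0.19, edgeR adjusted p = 0.028). The groups did not overlap for either gene, and neither was highest in library 1 of both groups. Irf3 was not called. Of 17 sensing adaptors and kinases, Tlr4, the lipopolysaccharide receptor, rose (1.16 ± 0.29, edgeR adjusted p = 0.042), and the adaptor Ticam2 (-1.01 ± 0.17, edgeR adjusted p = 0.015) and the endosomal transporter Slc15a4 (-0.68 ± 0.17, edgeR adjusted p = 0.042) fell.

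Of 70 other interferon-stimulated genes 69 were tested in the wound, 6 rose in Eff+ and none fell, against 7.39% of all genes called higher and 3.79% called lower. Their median log2 fold change was 0.02. The 4 of smallest p were Ifitm1, which restricts virus entry (2.33 ± 0.26 SE, edgeR adjusted p = 0.0097), the nuclear body protein Sp140 (1.64 ± 0.26, edgeR adjusted p = 0.013), the cytokine Il15 (1.76 ± 0.34, edgeR adjusted p = 0.022) and Cd274, which encodes PD-L1 (1.52 ± 0.34, edgeR adjusted p = 0.032). Of 24 genes that lean towards interferon gamma 23 were tested and 1 rose, Gbp5 (1.56 ± 0.35, edgeR adjusted p = 0.032), while Cxcl9 was at 0.818 to 5.90 CPM and was not called. Of 12 negative regulators 11 were tested and none was called, Socs1 included (log2 fold change 0.12). None of these wound calls held without Eff+ library 2, where edgeR called no gene (smallest adjusted p = 0.058, 3260 genes at an unadjusted p under 0.05). Stat3, Irf1 and Slc15a4 lost the call whichever single library was left out. No gene was called either without both libraries numbered 2 or without both numbered 3. Without both libraries numbered 1, Ifnlr1, Ifitm1, Sp140, Il15, Cd274 and Gbp5 passed, and Jak1 (log2 fold change 0.81), Stat3 (0.71), Irf1 (0.89), Irf8 (-0.91), Tlr4 (0.99), Ticam2 (-0.98) and Slc15a4 (-0.58) kept their sign and did not. The neutrophil markers given above moved with the same contrast, and their part in these calls was not tested. In culture none of the genes of these lists was called.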

How the data were processed

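Poly(A) RNA of 10 libraries was measured by RNA-seq. The authors deposited 2 tables of raw read counts per Ensembl gene. Per the file headers, the wound counts came from featureCounts 1.6.0 with Ensembl release 106 (GRCm39), and no option for strand, multi-mapping or overlapping reads is recorded. Trimmomatic 0.39 is named per the submitters' processing notes. The aligner, and the counting command of the culture table, are not stated there or in the labels. Of the per-sample columns, 4 matched no sample and were not used.

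Symbols were found for 52081 of 55414 identifiers (99.9% of counts). Counts were scaled by TMM and tested with edgeR 4.0.16 (quasi-likelihood, filterByExpr, Benjamini-Hochberg adjustment over all tested genes, threshold 0.05) in R 4.3.3, separately per model, and over all 10 libraries for the difference. DESeq2 1.42.0, limma-voom (limma 3.58.1), other scalings and filters, a replicate block and left-out libraries were alternatives. The scripts were tested on simulated data. There the wound fit called 24% of 100 genes changed 2-fold and 87% of 100 changed 4-fold. The culture and difference fits called 0% of either. Members, lists and tests were chosen with earlier results of these data known. Named members were 19 spread over the roles, plus Isg20, Trim30a, Rtp4 and Oas3, chosen after their values were seen. Of the pathway lists, up to 4 called genes per direction and a set of core signalling genes were named, except for a result that is not reported here. Promoters are RefSeq windows of GRCm38.p6.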

Additional observations from a re-analysis of the deposited data

How the results depend on the processing

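In the wound, the members' median log2 fold change stayed positive under every alternative scaling, filter, tool and left-out list of genes, and left-out single libraries took it from -0.34 (without Eff+ library 1) to 0.94 (without Eff- library 1). It was 0.14 with library totals only, where all genes shifted by -0.39 and the calls split into 714 higher and 2654 lower, and 0.19 without both libraries numbered 1. The count of genes called was 3368 with library totals only, 3135 with DESeq2, 751, 0 and 0 without both libraries numbered 1, 2 or 3, and 0 to 1347 with 1 library left out. Members called were 2 with no filter on low counts (Gbp2 and Isg20), 1 with DESeq2 (Gbp2) and 4 without both libraries numbered 1. With library totals only, the log2 fold change was -0.33 for Irf7, -0.097 for Stat2, -0.036 for Usp18, -0.18 for Zbp1 and -0.26 for Ifih1. Without both libraries numbered 1 it was -0.15 for Irf7, -0.028 for Zbp1 and -0.073 for Ifih1, and limma-voom gave -0.028 for Irf7. With 1 library left out it ran from -0.61 to 0.49 for Irf7, -0.088 to 0.54 for Stat2, -0.57 to 0.95 for Usp18, -0.71 to 1.31 for Ifit2, -0.48 to 2.43 for Ifit3, -0.075 to 1.39 for Oasl1, -0.53 to 1.56 for Ifi47, -0.53 to 0.70 for Zbp1 and -0.55 to 0.59 for Ifih1.

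No label says that the numbers pair libraries. The deviations of same-numbered wound libraries correlated at 0.41, 0.017 and 0.23, and Eff+ library 2 correlated best with Eff- library 3. A rule asked for 0.1 in every pair, so the wound numbers were not taken as pairs. Yet all 38 members were highest in library 1 of both groups, and Lyz2 was high only in the wound libraries numbered 2. Whether the numbers pair libraries was therefore not settled. In culture both correlations of same-numbered libraries were 0.74, above 0.1, and those of unlike numbers were -0.74. With 2 libraries a group these values are equal in size by construction, but their sign is not fixed. The main culture fit had no block, although the culture numbers met the rule. With a replicate block, 2985 of 14908 wound genes and 17 of 38 members were called, 15 higher in Eff+ (11.5% of genes) and 2 lower (8.51% of genes; Mx1 and Bst2), and Irf7 was at -0.029. With neutrophil, keratinocyte and fibroblast genes also left out, the block called 2960 genes and 17 members, with Irf7 at -0.026. The block without both libraries numbered 1, 2 or 3 called 7, 15 and 15 members (8.18%, 11.4% and 13.9% of genes). Without those numbered 1 it gave a median of 0.22 and log2 fold changes of -0.15 for Irf7, -0.030 for Zbp1 and -0.056 for Ifih1, and without those numbered 2 it gave -0.053 for Ifih1. The block called 48 genes in culture, and 441 genes and 2 members (Gbp2 and Isg20) for the difference between models.

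In culture, genes called were 2 with no filter, 2 with DESeq2 and 0 to 27 with 1 library left out, and no member was called under any setting. The median was 0.043 with no filter, with Irf9 at 0.043 and Stat2 at 0.065, and -0.35 to 0.56 with 1 library left out. Those ranges were -0.45 to 1.27 for Irf7, -0.44 to 0.60 for Irf9, -0.26 to 0.29 for Stat2, -0.48 to 1.5 for Isg15, -1.34 to 0.52 for Ifit1, -0.35 to 1.85 for Ifit2, -1.03 to 0.49 for Ifit3, -1.50 to 1.20 for Oasl1, -0.43 to 1.65 for Oasl2, -2.27 to 0.47 for Cxcl10, -1.20 to 1.11 for Ifi47, -1.41 to 0.73 for Zbp1, -0.79 to 0.43 for Ddx58 and -0.15 to 2.23 for Bst2. For the difference between models, genes called were 517 with no filter, 797 with DESeq2 and 0 to 2009 with 1 library left out, and members called were 3, 1 and 0 to 1. The causes were not tested. Of the values for single genes, 812 kept their direction and side of the threshold, 100 lost the call, 74 gained it and 50 changed sign. With 3 and 2 libraries a group, and a lone library assumed to vary like the other group where 1 was left, the number of libraries limits the precision of every value.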
